A study of Mus musculus and Homo sapiens with 32 samples.

Results

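Long single-exon peaks of wild-type mouse embryonic stem cells are stretches of at least 1500 bp that the authors' wild-type list gives as 1 unbroken block of exon. They number 399, in 374 genes, of 10507 single-exon peaks and 20055 peaks of any structure in that list. The members were chosen by their length in the wild-type list, so their length and wild-type fold are given as a description. Bulk m6A-CT, in which an antibody to N6-methyladenosine (m6A) steers a transposase to RNA paired with cDNA inside nuclei, was used to map the mark, with input libraries tagmented without antibody. The genotype set held C57BL/6 cells labelled Mettl3-/- (KO), with 2 m6A-CT and 2 input libraries, and C57BL/6 wild-type cells, with 2 and 2, all with a MilliporeSigma antibody. Whether the KO line is 1 clone and which part of Mettl3 was removed are not given. The mouse lists set beside it came from E14 embryonic stem cells, from expanded potential stem cells (EPSC) of the E14 line and from CF1 mouse embryonic fibroblasts (MEF). Each of these had 2 m6A-CT and 2 input libraries of 100K nuclei and a Synaptic Systems antibody, so cell line, antibody and peak caller differ together from the genotype set. The sample titles of the genotype set give no number of nuclei, so that number may differ as well.

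m6A is written on nascent RNA by a complex in which METTL3 is the catalytic subunit, METTL14 its partner and RBM15 and RBM15B adaptors that bind RNA. The mark is known to lie mostly in long internal exons and around stop codons and in the last exon, away from splice junctions. Proteins of the exon junction complex are known to keep the writer away from the ends of exons that are spliced together. Very long exons and unspliced transcripts are the places where the mark can spread over long distances.

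No file gives a value per replicate. Each genotype has 1 peak list and 1 pooled column per library kind, so no test between replicates was possible, and intervals cover counting error only. Pooled totals were 37532658 m6A-CT and 51031598 input reads for Mettl3 KO, against 39310394 and 45090626 for wild-type. Reads outside the mitochondrial leucyl-tRNA synthetase gene Lars2 and the ribosomal RNA precursor Rn45s were 45.5% of the Mettl3 KO and 63.5% of the wild-type m6A-CT reads. Peaks of the Mettl3 KO list were thus called on fewer reads over most genes, and the part of this in the results below was not tested. Of 8 embryonic stem cell markers, 7 were in the genotype table, with a summed input level, in reads scaled to a common library size (RPM), of 721 RPM in Mettl3 KO and 922 RPM in wild-type. The 2 of 8 fibroblast markers in the table summed to 0.725 RPM in Mettl3 KO and 0.0222 RPM in wild-type. The 1 listed Mettl3 region had 2.47 RPM of input in Mettl3 KO and 1.71 RPM in wild-type, which does not check the label, since the removed part is unknown, and Mettl3 KO stands throughout for the libraries labelled so.

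The long peaks had a median length of 1999 bp (quartiles 1699 and 2536.5) and together spanned 926 kb, or 22.4% of the length of all single-exon wild-type peaks, although they were 3.80% of them. In all, 199 were at least 2000 bp long, 63 at least 3000 bp and 7 at least 5000 bp. Their median wild-type fold, which the peak caller gives as m6A-CT against input, was 11.2 (quartiles 7.93 and 17.25), against 3.5 for single-exon peaks under 1500 bp. Of the 42 single-exon peaks with a fold of at least 30, 36 were long. Fold and length went together along the whole list: the median fold was 2.67 in peaks under 200 bp, 5.5 at 500 to 999 bp, 7.17 at 1000 to 1499 bp, 9 at 1500 to 1999 bp, 12.1 at 2000 to 2999 bp and 18 in peaks of 3000 bp and over. Across the 399 members, Spearman's rho of length and fold was 0.40, over peaks of the same 4 libraries. The threshold is not a natural border. Just inside it lay peaks of 1500 bp in Insr (the insulin receptor gene, 22-fold), Mapk1ip1l (11.8-fold) and Cbx6 (a Polycomb gene, 8.4-fold). Just outside it lay peaks of 1499 bp in Ino80d (a chromatin remodelling subunit gene, 16.5-fold), Icmt (5.71-fold) and Slc35e2 (8-fold).

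**Figure D1:**
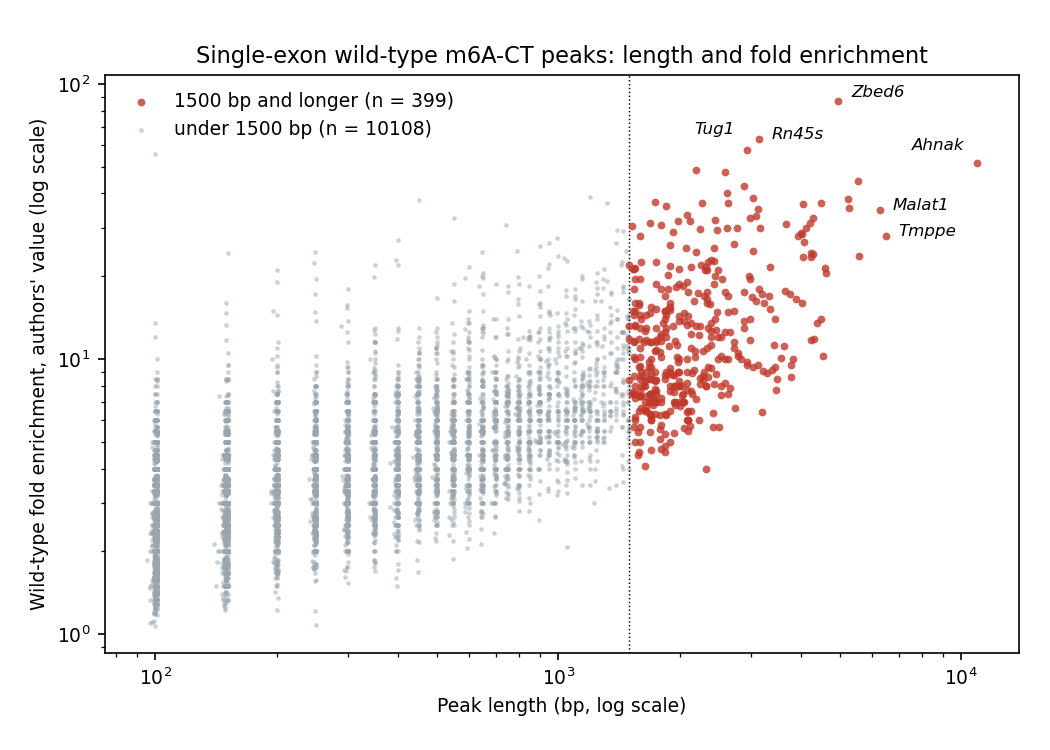
Wild-type fold enrichment (y axis, log scale) against length in bp (x axis, log scale) for 10507 single-exon wild-type peaks. Red points are the 399 peaks of 1500 bp and longer, grey points the 10108 shorter ones, and the dotted line marks 1500 bp. Shorter peaks reach down to 1.07-fold, while no long peak lies under 4-fold. Lengths of the shorter peaks stand in columns about 50 bp apart.

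The longest member lay in Ahnak, which encodes a giant scaffold protein from 1 very large coding exon. It ran over 10946 bp at mm9 chr19:9082134-9093079 on the plus strand, with a wild-type fold of 51.8 and listed introns of the gene only upstream of it. The next was in Tmppe, a gene for a predicted membrane phosphoesterase, with 6509 bp at chr9:114313712-114320220 (27.9-fold). Malat1, an abundant nuclear noncoding RNA, carried 6285 bp at chr19:5796338-5802622 (34.8-fold). Peg10, a paternally expressed imprinted gene that derives from a retrotransposon, carried 5572 bp at chr6:4704597-4710168 (23.7-fold). The zinc finger gene Zfp518a had 5542 bp at chr19:40986147-40991688 (44.5-fold), and the kelch domain gene Klhdc7a had 5259 bp at chr4:139518237-139523495 (35.3-fold). Fem1b, a substrate receptor gene of a ubiquitin ligase, had 5243 bp at chr9:62640135-62645377 (38.3-fold). Zbed6, a domesticated DNA transposon gene whose product represses Igf2 in muscle, had 4957 bp at chr1:135552506-135557462. The membrane protein gene Lrrc15 (4614 bp, 20.5-fold) and Fut9 (4597 bp, 21.5-fold), whose enzyme makes the SSEA-1 sugar epitope of stem cells, completed the 10 longest.

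By wild-type fold, Zbed6 led at 86.5, followed by Rn45s (63.2), the noncoding RNA Tug1 (57.3), Ahnak and Igsf3 (48.7), an immunoglobulin superfamily gene. Zrsr1 (47.7), an imprinted gene related to a splicing factor, Zfp518a, the plasma membrane calcium pump gene Atp2b1 (42.7), the zinc finger gene Zfp808 (40.3) and the BMP receptor gene Bmpr2 (38.5) completed the 10 highest. How the peak caller computed fold is not stated, and Rn45s is a special case. In the genotype table the RPM ratio of its region was 0.493 in Mettl3 KO and 0.321 in wild-type, both under 1. Counts were recomputed without it where they lead, and none moved by more than its counting interval.

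Several members belong to 1 transcript. Of the 374 genes, 21 had 2 or more long peaks, 46 in all, led by 5 in Ttn, which encodes the giant muscle protein titin, and 3 in Purb, a single-stranded nucleic acid binding protein gene. In 7 neighbouring pairs, in Chml, Purb, Eppk1, Ttn (2 pairs), Ttc39b and Aak1, the peaks were only 98 or 99 bp apart, so the 2 peaks of a pair are nearly continuous. Neat1, a nuclear noncoding RNA, was listed with 2 overlapping peaks of 3096 and 2987 bp. In 5 members another gene name was listed over the same bases: Cbx6 with Npcd, Rsc1a1 with Ddi2, Amd2 with Amd1, Pakap with Akap2 and Zfp991 with Znf41-ps. Which transcript carries those reads cannot be told apart, and for Amd2 and for zinc finger genes with near copies the counting could also have split reads between genes.

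Gaps between exon blocks in the authors' 3 genotype files give introns, which place the members. In 234 (58.6%, Wilson 95% interval 53.8 to 63.4) the listed introns of the gene lay upstream only, so the peak sat in the last listed exon. For shorter single-exon peaks that share was 64.4% (63.5 to 65.4). In 145 (36.3%, 31.8 to 41.2) the gene had no listed intron at all, against 20.4% (19.6 to 21.2) of shorter peaks. These 145 members had a median fold of 13.5, against 10.05 for last listed exons. A further 16 (4.01%, 2.48 to 6.41) had introns on both sides, among them the 5 of Ttn and both of the microtubule-binding protein gene Map1a. Only 4 (1.00%, 0.391 to 2.55) had introns downstream only: the peak of the protocadherin gene Pcdh19, and those in Zfp451, Brip1os and the mismatch repair gene Mlh3. Short peaks had introns on both sides in 7.89% (7.38 to 8.44) and downstream only in 7.28% (6.79 to 7.80). A gene with no listed intron is not shown to be intronless, and the last listed exon need not be the last exon. Introns are seen only where a listed peak or region crosses them. Untranslated and coding parts were not told apart, since no mm9 annotation was used here.

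The Mettl3 KO list was used to ask what is left of these stretches when the writer's catalytic gene is labelled as knocked out. That list held 20482 peaks, 10877 of them single-exon, against 20055 and 10507 in the wild-type list. Its peaks summed to 10.8 Mb of exon, against 14.5 Mb in the wild-type list. At least 1 Mettl3 KO piece on the same strand lay on 306 members (76.7%, 72.3 to 80.6), where 39.9% of all single-exon wild-type peaks had one. Of the members, 258 (64.7%, 59.9 to 69.2) were in 2 or more pieces, where 11.7% of all single-exon wild-type peaks were. A longer peak has more room for pieces, so the class just below is the nearer comparison: of 426 peaks of 1000 to 1499 bp, 68.5% (64.0 to 72.8) had a piece and 47.9% (43.2 to 52.6) had 2 or more. Among members of 3000 bp and over, 81.0% (69.6 to 88.8) had a piece and 71.4% (59.3 to 81.1) had 2 or more. In all, 93 members had no piece, 48 had 1, 188 had 2 to 4 and 70 had 5 or more. These counts rest on weak peaks: with Mettl3 KO peaks of at least 5-fold only, 48.6% of members had a piece and 20.1% had 2 or more.

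**Figure D2:**
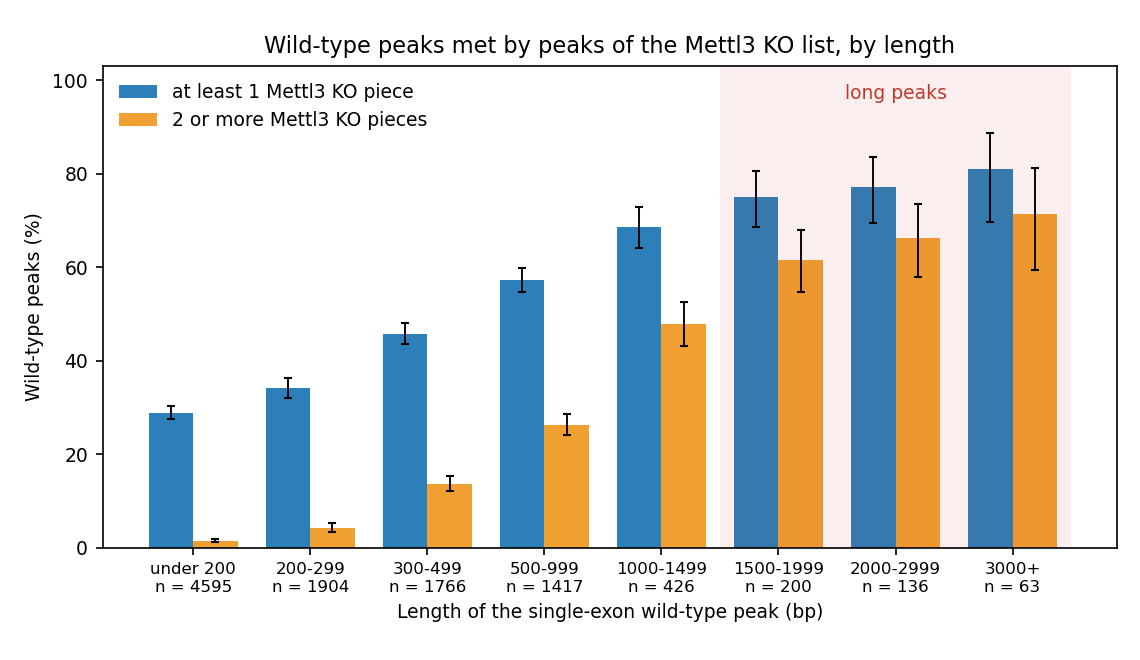
Share of single-exon wild-type peaks (y axis, percent) with at least 1 piece (blue) and with 2 or more pieces (orange) in the Mettl3 KO list, by length of the wild-type peak (x axis, bp). Whiskers are Wilson 95% intervals, which cover counting error only, and the shaded classes are the long peaks. Both shares climb with length, to 81.0% and 71.4% in the 63 peaks of 3000 bp and over.

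The 1055 pieces came from 1049 Mettl3 KO peaks and covered a median of 250 bp of a member each, at a median fold of 3.5. Taken by member, the covered share of length had a median of 58.7%, and over the summed length it was 53.0%. In 39 of the 48 members with only 1 piece, that piece covered at least 80% of the wild-type peak. In all, 13 members were covered from end to end. The breaks were short: of 740 gaps between neighbouring pieces, the median was 99 bp, 389 (52.6%) measured 97 to 99 bp and 34 exceeded 500 bp. Gaps of that size are common in the caller's output, since 52.8% of the 5204 gaps under 500 bp between single-exon wild-type peaks also measured 97 to 99 bp, and peak lengths step in units of about 50 bp. With pieces under 100 bp apart joined, 47.4% of members were in 2 or more pieces, and the count of pieces thus rests in good part on single missing steps.

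Ahnak broke into the most pieces, 18, which covered 75.5% of its peak, the longest over 850 bp and none above 8.5-fold. Input over the Ahnak region was also much lower in Mettl3 KO, as given below, and its part in the pieces was not tested. Zbtb39 and Zbtb43, both zinc finger genes of the BTB family, had 10 pieces each, over 49.1% and 53.6% of 4500 and 4381 bp. The clathrin adaptor kinase gene Aak1 had 9 on its longer peak (46.9%). Fut9 (56.7%), the activin receptor gene Acvr2b (56.9%) and Ercc6l (67.4%), a gene of a mitotic DNA translocase, had 8 each, and the longest Ttn peak had 7 (28.0%). In these 8 members the covered share ran from 28.0% to 75.5%, and the map of the 10 longest peaks shows for Ahnak and Fut9 that the pieces are spread along the stretch.

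**Figure D3:**
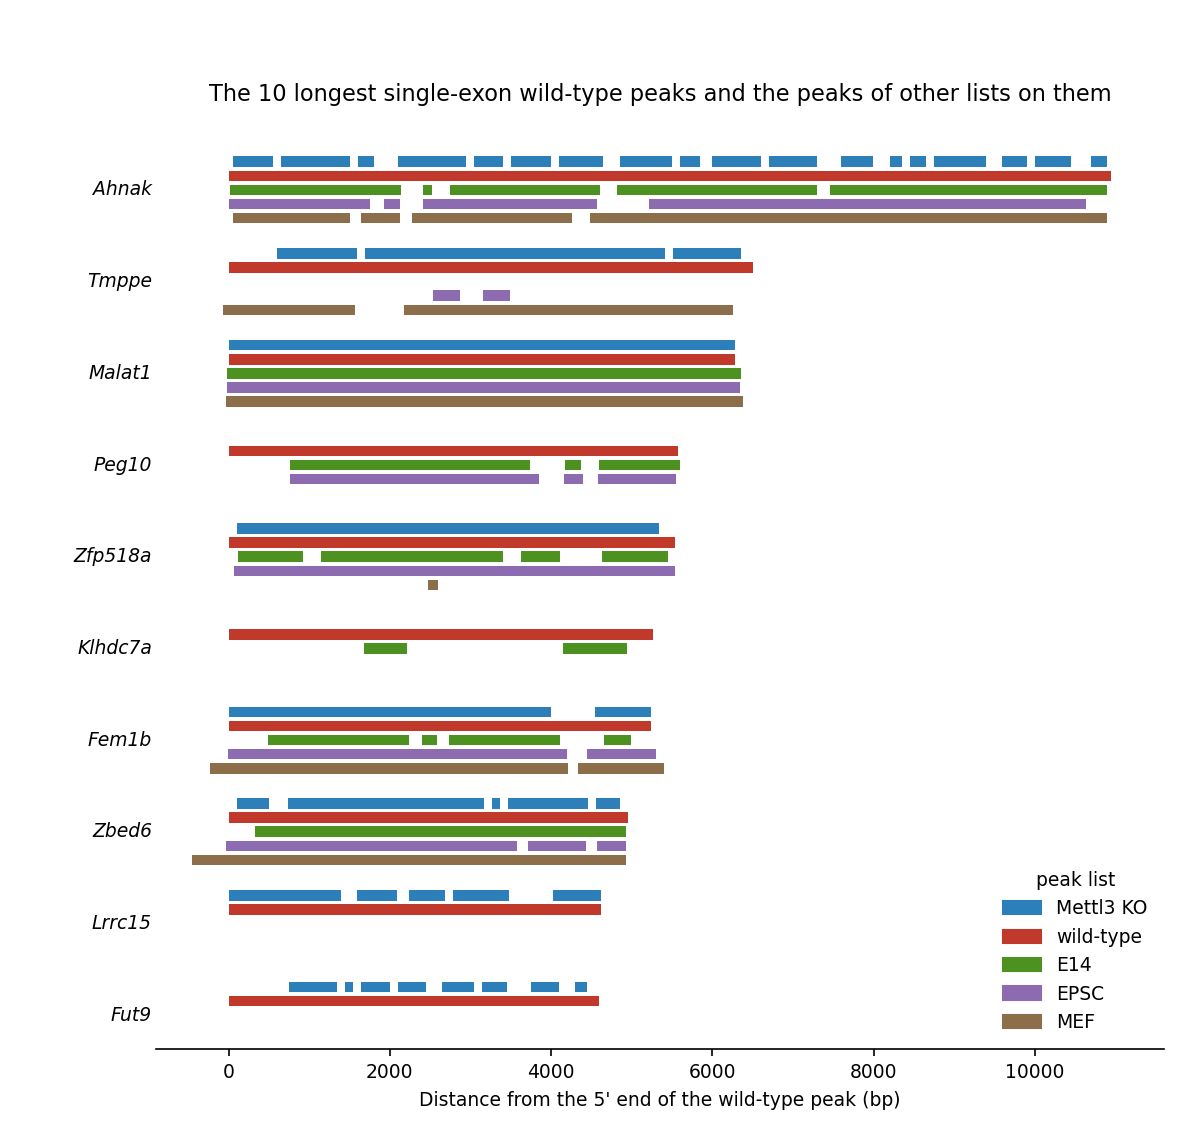
The 10 longest members, aligned at the 5' end of the wild-type peak (x axis, distance in bp). For each gene the rows from top to bottom give peaks of the Mettl3 KO list, the wild-type peak, and peaks of the E14, EPSC and MEF lists. Ahnak lies under 18 Mettl3 KO pieces, Malat1 under 1 that spans all 6285 bp, and Peg10 and Klhdc7a have none.

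At least 80% of the length was covered by Mettl3 KO pieces in 114 members (28.6%). Among the most covered, Malat1 kept all 6285 bp in 1 piece of 20.7-fold, with the same start and end as in wild-type. Zfp518a kept 94.6%, nearly all in 1 piece of 5243 bp (13.5-fold), and Fem1b kept 89.5% in pieces of 3995 and 700 bp. Rn45s, both peaks of Tead1, a TEAD transcription factor gene of Hippo signalling, the zinc finger genes Zfp808, Zfp936 and Zbtb44, and Klf13, a Kruppel-like factor gene, were covered in full by 1 piece each. Tmppe kept 85.5% in 3 pieces with breaks of 98 bp.

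Other members had no peak left in the Mettl3 KO list. The 8 longest were Peg10, Klhdc7a, Bend3, Bri3bp, the WNT receptor gene Fzd7, the progestin receptor family gene Paqr8, Fem1a and the zinc finger gene Zfp275, with wild-type peaks between 5572 and 3488 bp and folds from 35.3 down to 8.5. In some of these the RNA itself was scarcer. Input over the Peg10 region was 1.63 RPM in Mettl3 KO against 12.4 RPM in wild-type. Klhdc7a had 0.882 RPM in Mettl3 KO and 4.64 RPM in wild-type, and Paqr8 had 1.59 RPM in Mettl3 KO and 8.63 RPM in wild-type. Input was closer between genotypes for Fem1a (12.1 RPM in Mettl3 KO, 11.8 RPM in wild-type), Bend3 (12.0 RPM in Mettl3 KO, 14.2 RPM in wild-type) and Fzd7 (11.4 RPM in Mettl3 KO, 17.5 RPM in wild-type). A missing peak therefore stood beside lower input in Peg10, Klhdc7a and Paqr8, and beside similar input in Fem1a and Bend3. In bulk nuclei, fewer cells with a transcript and less of it per cell cannot be told apart.

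Wild-type fold differed between these outcomes, while wild-type level set apart mainly the members with 1 piece. Members with no piece had a median wild-type fold of 8.86, against 18.2 for those with 1 piece and 11.5 for those with 2 or more. Their regions had 1.36 RPM of wild-type input per kb, against 3.43 with 1 piece and 1.39 with 2 or more. When the 363 members with a region in the genotype table were ranked by wild-type input per kb, a piece was found in 73.6% (65.1 to 80.6) of the 121 lowest, 71.1% (62.4 to 78.4) of the 121 in the middle and 81.8% (74.0 to 87.7) of the 121 highest, and the median covered share was 45.2%, 49.1% and 74.7%. Coverage and Mettl3 KO input level had a Spearman's rho of 0.29 across these 363 members, which share their libraries and their depth. The part of read depth in the pieces was not tested. By place, 85.5% of members in a last listed exon had a piece, against 60.0% of those with no listed intron. Among shorter peaks the shares were 45.2% and 15.9%. Introns were drawn from the Mettl3 KO list too, so place and pieces are not independent.

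The remaining signal was also lower in fold. The highest fold of any Mettl3 KO piece was below the wild-type fold in 283 of the 306 members with a piece, at medians of 5.55 in Mettl3 KO and 11.9 in wild-type, where it was lower in 58.0% of the 4196 single-exon wild-type peaks with a piece. That is 92.5% of these members, and in the class of 1000 to 1499 bp it was lower in 238 of 292 (81.5%). The members were chosen on the wild-type side, where a long peak goes with a high fold, so part of this difference is built in. The plot of folds shows Ahnak at 8.5 in Mettl3 KO and 51.8 in wild-type, Tug1 at 4.5 in Mettl3 KO and 57.3 in wild-type, and Zbed6 at 12 in Mettl3 KO and 86.5 in wild-type. For Ahnak and Tug1 the input was lower in Mettl3 KO too, as given below, and its part in these folds was not tested. Rn45s lay near the line of equal fold at 62.1 in Mettl3 KO and 63.2 in wild-type. In 23 members the Mettl3 KO fold was not lower, among them Zfp980 (30.8 in Mettl3 KO, 29.8 in wild-type), Celf1 (10 in Mettl3 KO, 8.6 in wild-type) and Ywhaz (10.2 in Mettl3 KO, 9 in wild-type), which encode a zinc finger protein, a regulator of splicing and RNA decay, and a 14-3-3 protein.

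**Figure D4:**
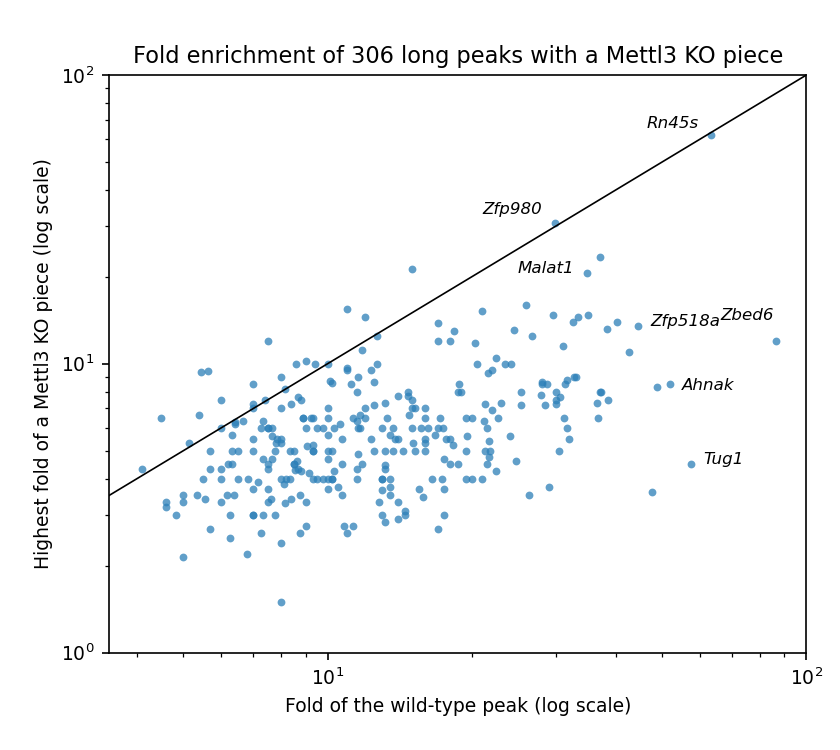
Highest fold of a Mettl3 KO piece (y axis, log scale) against the fold of the wild-type peak (x axis, log scale) for the 306 long peaks with a piece. Each point is 1 wild-type peak and the line marks equal fold. Below the line lie 283 points, and Rn45s and Zfp980 lie close to it.

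The reverse comparison starts from the Mettl3 KO list. It held 183 single-exon peaks of at least 1500 bp, in 174 genes, with a median length of 1896 bp and a median fold of 7.33. A wild-type peak on the same strand met 182 of them, and the median covered share was 100%. Only 42 (23.0%, 17.5 to 29.6) were met by 2 or more wild-type peaks, where 258 of the 399 wild-type members lay under 2 or more Mettl3 KO peaks. They lay on 71 of the 399 members, and 98 of the 183 lay on a wild-type peak that spans several exons, such as those of the transcription elongation factor gene Aff4 (4087 bp) and the m6A demethylase gene Alkbh5 (3586 bp). The single one without a wild-type peak was in Tmpo, a gene of the nuclear lamina. The lower number of m6A-CT reads over most genes in Mettl3 KO moves with this asymmetry, and its part was not tested.

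Within the members, coverage was lowest at both ends. Averaged over all 399, Mettl3 KO pieces covered 40.1% of the first of 20 equal parts from the 5' end, 57.4% at 30 to 35% of the length and 38.2% of the last part. Summits of the other 3 lists were counted along the members, with no test. MEF had 118 of its 372 summits (31.7%) in the 5 most 5' parts of the 20 and 65 (17.5%) in the 5 most 3' ones, E14 had 69 (25.7%) and 53 (19.8%) of 268, and EPSC had 81 (24.4%) and 76 (22.9%) of 332, so the difference between the ends was largest in MEF and small in EPSC. In members with a piece, summits fell inside the covered part for E14 in 85.0% (80.0 to 88.9), for EPSC in 82.5% (77.7 to 86.4) and for MEF in 76.0% (70.7 to 80.6). That part made up 75.2%, 74.4% and 69.6% of the length of the same members, weighted by their summits, so summits were somewhat more often where a Mettl3 KO piece remained. The intervals treat summits as independent, which those of 1 member are not.

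**Figure D5:**
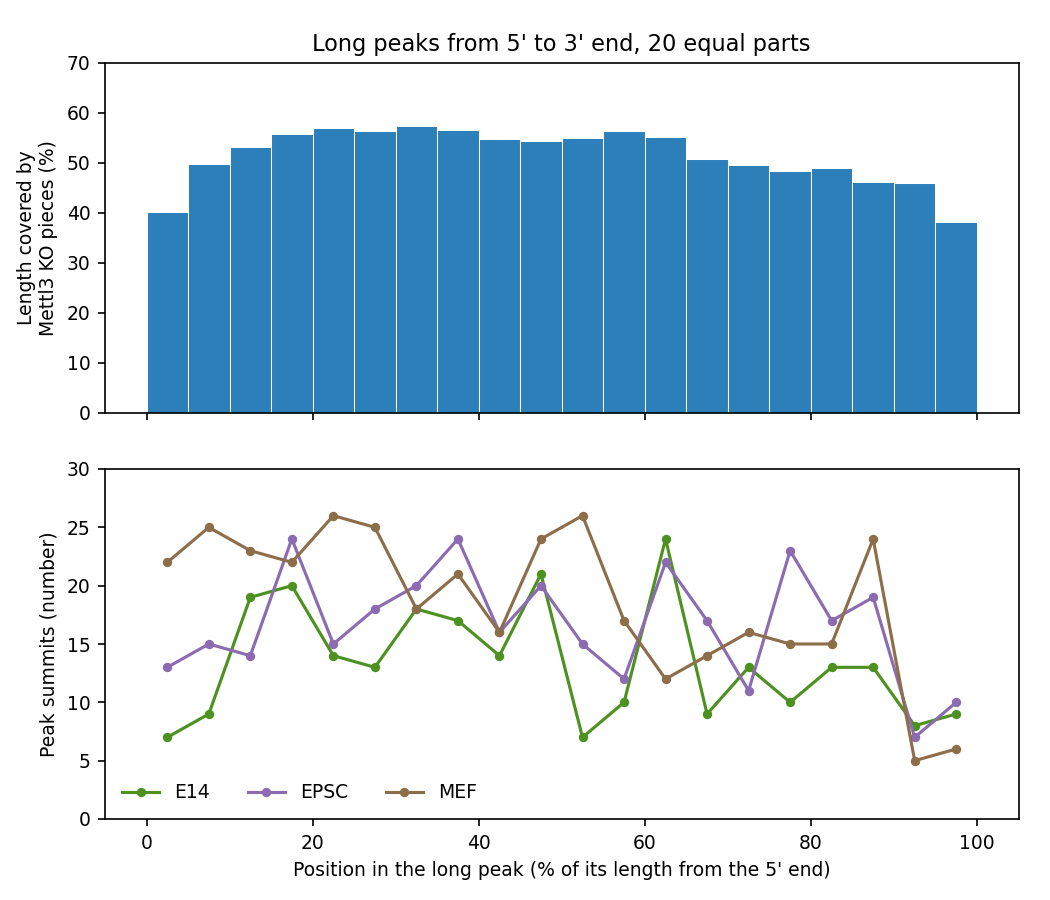
Long peaks cut into 20 equal parts from the 5' to the 3' end (x axis, percent of length). The upper panel gives the mean share of each part covered by Mettl3 KO pieces over 399 peaks (y axis, percent), lowest at 40.1% and 38.2% in the end parts. The lower panel gives the number of summits (y axis) from the E14, EPSC and MEF lists in each part, without error bars.

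Long members were marked in other mouse cells more often than single-exon peaks as a whole. An E14 peak overlapped 175 (43.9%, 39.1 to 48.8), where 6.30% of all single-exon wild-type peaks had one. For EPSC it was 212 (53.1%, 48.2 to 58.0), where 10.9% of all had one, and for MEF 285 (71.4%, 66.8 to 75.6), where 33.6% of all had one. Overlap by chance grows with length, and at 1000 to 1499 bp the shares were 24.4%, 39.2% and 54.5%. The order of the cell types follows the length of their lists (8052, 12183 and 38205 peaks). With only as many peaks by q-value from each list as E14 has, EPSC met 36.6% and MEF 21.6% of the members, so the order turned. Peaks on members were long in these lists too, with medians of 462 bp in E14, 477 bp in EPSC and 1020.5 bp in MEF, where all peaks had 216, 237 and 267 bp.

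All 3 lists met 105 members (26.3%), where they met 152 of the 10108 shorter single-exon peaks, among them Ahnak, Malat1, Zfp518a, Fem1b, Zbed6, the pluripotency regulator gene Zfp281 and Fzd7. No list met 45 members (11.3%), where none met 61.8% of the shorter peaks, among them Lrrc15 and the longer Fut9 peak. MEF alone met 108 members (27.1%), close to the 27.0% of shorter peaks, among them Zbtb39, Bri3bp, Fem1a and Zfp275. E14 and EPSC without MEF met 36 (9.02%), where they met 1.41% of shorter peaks, among them Peg10, Acvr2b, Sox2 and Fgf4. Of the members in all 3 lists, 90.5% (83.4 to 94.7) had a Mettl3 KO piece, and of those in E14 and EPSC but not MEF 91.7% (78.2 to 97.1). Of the members in MEF alone, 61.1% (51.7 to 69.8) had a piece, and of those in none 68.9% (54.3 to 80.5). The MEF-alone members had a lower median wild-type fold, 8.5, than those in all 3 lists, at 18.3.

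How far the stretch was kept between lists varied by gene. On Malat1 each list gave 1 peak of 6375 bp in E14, 6370 bp in EPSC and 6410 bp in MEF, close to the wild-type 6285 bp. On Tug1 each gave 1 peak, of 2890, 2856 and 2890 bp, over a wild-type peak of 2942 bp at chr11:3540287-3543228, while in Mettl3 KO the same stretch held 4 pieces, 3 of them 101 bp long and 1 of 400 bp. On Zfp518a, E14 gave 4 peaks, EPSC 1 of 5467 bp and MEF 1 of 124 bp. On Ahnak, E14 gave 5 peaks and EPSC and MEF 4 each. On Peg10, E14 and EPSC gave 3 peaks with nearly the same borders: the first ran from 763 bp to 3743 bp from the 5' end in E14 and from 763 bp to 3844 bp in EPSC. Fzd7, at chr1:59539338-59543452, had 1 short E14 peak of 191 bp, 3 in EPSC and a single MEF peak of 4357 bp that spans nearly the whole wild-type peak.

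The genotype table gives each region's change in Mettl3 KO of m6A-CT over input. A region overlapped 363 members, on 341 distinct regions, each longer than its member (median 4420 bp), so these values average over more than the peak. Of the 341 regions, 339 were lower in Mettl3 KO past an FDR of 0.05 in the authors' deposited table, where 88.8% of all 33473 regions were, and 2 were higher, where 11.0% of all were. In either direction 33391 of the 33473 regions passed that FDR, so passing it sets hardly any region apart. The median change was -1.46 over the 341 regions on the log2 scale of the authors' deposited table, against -1.35 over the whole table. Since wild-type signal chose the members, the count is a description. On the RPM columns, without the offset of the authors' model, 325 were lower with a median of -0.99, against -0.82 for the whole table, and with Lars2 and Rn45s taken out of the totals 309 were lower with a median of -0.82, against -0.65. The median ratio of m6A-CT over input RPM was 3.37 in Mettl3 KO and 6.61 in wild-type, against 1.90 in Mettl3 KO and 3.34 in wild-type over the whole table. It was above 1 in 336 regions in Mettl3 KO and in 340 in wild-type. With Lars2 and Rn45s taken out of the totals, the median ratio was 1.41 in Mettl3 KO and 2.45 in wild-type, and it was above 1 in 242 regions in Mettl3 KO and in 320 in wild-type. The count of regions above 1 in Mettl3 KO thus depends on the scaling, while the median change was below 0 on each of the 3 scales.

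The lowest value was that of Klhdc7a, which fell by 3.14 (log2) in the authors' deposited table, with 2.29 RPM of m6A-CT over 0.882 of input in Mettl3 KO and 76.5 over 4.64 in wild-type. Igsf3 fell by 2.82 in the authors' deposited table, with 24.9 RPM of m6A-CT over 4.60 of input in Mettl3 KO and 137 over 5.17 in wild-type, so here the input hardly differed. Tug1 had 9.54 RPM over 1.47 in Mettl3 KO and 156 over 4.48 in wild-type. Il17rd (-2.82), a gene for an inhibitor of FGF signalling, Map9 (-2.79), Tug1 (-2.76), Insr (-2.69), the thyroid hormone deiodinase gene Dio3 (-2.63) and Fzd7 (-2.60) completed the 8 lowest in the authors' deposited table. By RPM these 8 lay between -2.67 and -2.13, and with both abundant regions taken out between -2.50 and -1.96.

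At the other end, Ywhaz was 0.37 higher in Mettl3 KO (FDR 0.0172) in the authors' deposited table, with 25.9 RPM of m6A-CT over 5.09 of input in Mettl3 KO and 38.2 over 13.3 in wild-type. The m6A-CT level was thus lower in Mettl3 KO too, and the input was lower still. Rn45s stood at 0.01 in the authors' deposited table. Igf2bp1 (-0.17), an m6A reader gene, Dnajc5 (-0.28), Celf1 (-0.29), Pafah1b1 (-0.30), Usp22 (-0.33) and Zmat3 (-0.35) fell least in the authors' deposited table. On the RPM scale these 6 were above 0, between 0.09 and 0.35, so their direction depends on the offset of the model.

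Input itself was lower in Mettl3 KO over most of these regions. Members were chosen in the wild-type list, which favours transcripts present in wild-type, so these input counts are a description. By RPM 263 of 341 were lower, with a median of -0.43 (log2), where the whole table had -0.02. Scaling to reads outside Lars2 and Rn45s moves every input value by 0.31 upward, and then 203 of 341 were lower, with a median of -0.12, where the whole table had 0.29. The direction for many single genes thus depends on this scaling, but 11 regions were lower by more than 2 (log2) by RPM. They include Ahnak, at 14.4 RPM in Mettl3 KO and 100.4 RPM in wild-type, and Eppk1, a gene of the epithelial linker protein epiplakin, at 1.31 RPM in Mettl3 KO and 18.0 RPM in wild-type. Plagl1, an imprinted zinc finger gene, had 1.69 RPM in Mettl3 KO and 27.7 RPM in wild-type. No error between replicates can be given for these input differences.

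By gene group, the members divided as follows. Of all 399 members, 76.7% had a Mettl3 KO piece, and the median covered share was 58.7%. Of all 3681 genes with a single-exon wild-type peak, 10.2% had a long one. Pluripotency network genes had long peaks in 4 of the 11 listed genes with a single-exon wild-type peak, Zfp281, Lifr, Sox2 and Fgf4, and all 4 kept at least 1 Mettl3 KO piece. Lifr, the LIF receptor gene, kept 87.5% of 3945 bp in 6 pieces, and Zfp281 kept 71.1% of 4280 bp in 7. Sox2 kept 58.8% of its 2268 bp at chr3:34549016-34551283 in 2 pieces that end at 1529 bp from the 5' end, and the growth factor gene Fgf4 kept all 1740 bp in 1. All 4 had a lower top fold in Mettl3 KO than in wild-type. In the authors' deposited table the regions of Zfp281 (-1.79), Lifr (-1.53), Sox2 (-1.55) and Fgf4 (-2.16) were lower in Mettl3 KO. So were 361 of all 363 members with a region, at a median of -1.47.

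Growth factor and LIF signalling genes had 12 long peaks in 10 of 21 listed genes with a single-exon peak, and 4 of the 12 had no Mettl3 KO piece. Those 4 include Smad3, which encodes a TGF-beta effector (3094 bp), and both peaks of Irs2, which encodes an insulin signalling adaptor (1999 and 1799 bp). The receptor genes Igf1r, Bmpr2, Acvr2b and Insr kept pieces over 64.7%, 82.0%, 56.9% and 60.2% of their longest peaks. For WNT, Hedgehog and Notch signalling, 7 of 19 such genes had a long peak. Of their 7 long peaks, 3 had no Mettl3 KO piece, 1 had 1 and 3 had 2 or more. The WNT receptor genes Fzd7 and Lrp6 and the Notch co-activator gene Maml1 had none. Fzd5 had 1 piece, Gli3 had 2 and Pygo2 had 3. Fzd10 kept 60.2% in 3, of which 1 met the peak by 1 bp only. Counted by peak, all 7 of this group and all 12 of the growth factor group were lower in the authors' deposited table, at medians of -1.89 and -2.22. Peaks of 1 gene can share a region. Of all 363 members with a region, 361 were lower, at a median of -1.47.

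Of the m6A machinery, Rbm15 (2329 bp), Rbm15b (2373 bp) and Igf2bp1 (2845 bp) had long peaks, out of 10 listed genes with a single-exon peak. Rbm15 kept 83.0% in 1 piece, Rbm15b 50.1% in 2 and Igf2bp1 96.5% in 1. The input of Rbm15 was 30.8 RPM in Mettl3 KO and 20.3 RPM in wild-type, and that of Rbm15b 17.8 RPM in Mettl3 KO and 18.8 RPM in wild-type. Long noncoding RNAs had long peaks in 3 of 6 listed genes with a single-exon peak. Malat1 kept 100% of its peak, Neat1 93.6% and 93.4% of its 2 overlapping ones, and Tug1 23.9%. Of 9 such Polycomb genes 2 had long peaks: Cbx6 kept 64.1% and 50.2% of its 2 peaks and Rybp kept 76.9%. Of 14 such SOX, FOX and POU factor genes 4 had long peaks. Besides Sox2, given above, Sox12 kept 51.2%, while Pou6f1 and Foxk1 had no piece. Pcdh19 was the single cadherin gene of 5, with 34.2% kept, and Klf6 the single immediate early gene of 9, with 73.2% kept.

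Other lists were empty. None of the 53 chromatin regulator genes with a wild-type peak had a long single-exon one, nor did any of 12 DNA methylation and TET genes, 10 cytosolic ribosomal protein genes or 19 cell cycle genes. Of these, 15, 8, 4 and 5 had a single-exon peak of any length. Since 10.2% of all 3681 genes with such a peak had a long one, an empty list of that size is close to that background. Chromatin genes outside these lists did have long peaks, among them Ino80d. Zinc finger genes with names in Zfp, Zbtb, Zscan or Zkscan were the largest group, with 59 of the 374 genes (15.8%, 12.4 to 19.8), where they were 6.30% of the 3681 genes with a single-exon wild-type peak. Their coding zinc finger arrays are often held in 1 long last exon. Of their 59 peaks 14 had no Mettl3 KO piece, 5 had 1 and 40 had 2 or more, with a median covered share of 57.6%, close to the 58.7% of all members. All 52 with a region in the authors' deposited table were lower in Mettl3 KO, at a median of -1.42, near the -1.47 of all members with a region. Reads of zinc finger genes with near-identical copies may have been shared between them. Leaving out genes named as zinc finger or Gm genes moved none of the 10 leading results that were recomputed beyond its interval.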

How the data were processed

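The submitters' processing notes name Trim Galore, STAR 2.7.2, MACS2 and the build mm9. MeTPeak and exomePeak2 are named for the genotype set per the labels, with no version or settings. In the deposited MeTPeak lists the score is a p-value, other columns hold log10 of p and FDR, and the other column used is the number of exon blocks. The fold is the authors' value for m6A-CT against input, and how the caller computed it is not stated. In the deposited MACS2 lists fold is a ratio at the summit, −log10 p and −log10 q (at least 10) and a score of 10 times that q are the caller's, and other columns give the summit's offset. The authors' genotype table deposited RPM values (1 pooled column per genotype and library kind), a log2 fold change of m6A-CT over input with their model's offset, a p-value with FDR, and a score. Of the RPM values, 100% equal whole reads (tolerance 0.01 reads), which gives the totals. With 1 column per group, no count test such as edgeR could be fitted and 0 regions are called by one.

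Computed here (Python 3.11.15, pandas 2.3.3, scipy 1.17.1): members are rows with 1 block of at least 1500 bp. Pieces in Mettl3 KO and genotype regions share a strand and 1 bp or more with a member, MACS2 peaks 1 bp on either strand. Coordinates are printed from 1. Introns are gaps of at least 50 bp between listed blocks. Shares carry Wilson 95% intervals. Overlap counting was tested on simulated data. Genes named are the 10 longest, 10 highest folds, 8 with most pieces, 8 longest without one, 8 most covered, 5 with most peaks per cell type, up to 4 per gene list, those with several long peaks, 3 on either side of 1500 bp, and 8 lowest and highest log2 changes with at least 50 reads; others were named after their values were seen. Members and lists were chosen with earlier results of these data known. Depth of the MACS2 lists is unknown. Alternatives varied length, fold, overlap, merging, q threshold, list length and scaling.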

Additional observations from a re-analysis of the deposited data

How the results depend on the processing

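Of 86 recomputed values, 55 stayed within the counting interval and 31 did not. The median log2 change over regions kept its sign throughout, but single regions did not. Of 341 regions, 339 were lower in Mettl3 KO in the authors' deposited table, 325 by RPM and 309 with Lars2 and Rn45s taken out. The order of E14, EPSC and MEF turned with lists of equal length, and EPSC came above MEF with peaks wholly inside. With Mettl3 KO peaks of at least 5-fold only, 48.6% of members had a piece and 20.1% had 2 or more, and the median member had 0 pieces and 0% covered. With pieces under 100 bp apart merged, 47.4% were in 2 or more, at a median of 1 piece and 65.9% covered. From 1000 bp up, 56.0% were in 2 or more pieces, the shares with an E14, EPSC and MEF peak were 33.8%, 45.9% and 62.7%, and the median fold was 8.75. From 2000 bp up, these shares were 50.8%, 58.3% and 78.9%, the fold 13.5 and the covered share 63.7%. With peaks wholly inside a member, E14, EPSC and MEF met 35.8%, 43.1% and 37.6%. With −log10 q of at least 20 they met 19.5%, 28.8% and 53.6%. With summits inside, MEF met 65.9%, and with lists as long as that of E14, EPSC met 36.6% and MEF 21.6%. From the RPM columns 95.3% of regions were lower in Mettl3 KO at a median of -0.99 (log2), and without Lars2 and Rn45s 90.6% at -0.82. With regions that lie mostly inside a member (50% or more) the median was -1.54. The causes were not tested. Counting Neat1 once without Rn45s, or leaving out zinc finger and Gm genes, both chosen after seeing the data, moved none of the 10 results beyond its interval. No paired analysis was possible because the files hold no value per replicate, and leaving out replicates could not be run for the same reason. The fewest wild-type input reads over a region of a member were 30, and the part of depth in the pieces was not tested.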

Other observations

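Imprinted genes expressed from the paternal copy appeared 5 times among the long peaks, a group chosen after their values were seen, and their input differed in both directions. Plagl1 had 1.69 RPM of input in Mettl3 KO and 27.7 RPM in wild-type, Peg10 had 1.63 RPM in Mettl3 KO and 12.4 RPM in wild-type, and Zrsr1 had 2.33 RPM in Mettl3 KO and 6.08 RPM in wild-type. Dio3 had 4.21 RPM in Mettl3 KO and 1.91 RPM in wild-type, and Peg3 had 16.8 RPM in Mettl3 KO and 13.2 RPM in wild-type. No Mettl3 KO piece lay on Plagl1, Peg10 or Dio3, while Zrsr1 kept 36.7% in 5 pieces and Peg3 84.9% in 3.

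Of the long Mettl3 KO peaks that met no member, the longest were in Zfp462 (4848 bp, 7.1-fold, met by 2 wild-type peaks), Aff4 (4087 bp, 8-fold), Cbfa2t2 (3588 bp, 7.29-fold), Alkbh5 (3586 bp, 11-fold) and Spen (3550 bp, 8.2-fold). Osbpl8 had the most wild-type peaks under 1 long Mettl3 KO peak, 6 under 2384 bp.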
